A study of Mus musculus with 24 samples.

Results

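Steroid hormones reach adipose tissue from the blood and are activated or inactivated inside it by a small set of enzymes. The transcripts of 9 such enzymes were followed in purified adipose progenitor cells: Sult1e1, Akr1c18, Akr1c14, Hsd11b1, Hsd17b11, Hsd17b12, Srd5a1, Cyp1b1 and Cyp7b1. They were chosen by name, as enzymes that make or inactivate steroid hormones, with earlier results of these data known. They are 9 of the 27179 genes in the expression table. All 9 passed the filter on low values (a normalised count of at least 10 in at least 3 libraries), as 14517 genes did.

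The study sequenced RNA of PDGFRb+ cells, which were isolated from white adipose tissue of C57BL/6 mice by flow cytometry. Male and female mice were used, the gonadal depot gave the subpopulations FIP and APC, and the inguinal depot gave the subpopulations DPP4_pos and DPP4_neg. The 8 groups were therefore male FIP, male APC, female FIP, female APC, male DPP4_pos, male DPP4_neg, female DPP4_pos and female DPP4_neg, with 3 libraries each. The surface gates behind FIP and APC, the age of the mice, and whether a library came from 1 animal or from a pool are not given in the sources used here. P-values below then reflect how much these libraries varied, which may be technical variation.

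A sulfotransferase such as SULT1E1 inactivates estrogens by adding a sulfate group, taken from the donor PAPS that the enzymes PAPSS1 and PAPSS2 make. AKR1C18 is a 20-alpha-hydroxysteroid dehydrogenase, known for inactivating progesterone in the rodent ovary, and AKR1C14 is a 3-alpha-hydroxysteroid dehydrogenase that acts on dihydrotestosterone and other steroids. HSD11B1 regenerates active glucocorticoid in the endoplasmic reticulum with NADPH supplied by H6PD, and in adipose tissue it is known for amplifying glucocorticoid action. SRD5A1 is a 5-alpha-reductase that turns testosterone into dihydrotestosterone. HSD17B11 and HSD17B12 carry the names of 17-beta-hydroxysteroid dehydrogenases, and HSD17B12 is also the ketoacyl-CoA reductase of very-long-chain fatty acid elongation. CYP1B1 hydroxylates estradiol, and CYP7B1 hydroxylates oxysterols and some steroids at the 7-alpha position.

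The libraries held between 9152470 and 18221692 reads assigned to genes, recovered from the deposited normalised counts. Replicates of a group correlated with Pearson's r between 0.982 and 0.992 across genes, and no pair of replicates agreed within sampling noise. Pdgfrb, the gene of the sorted surface protein, was present in all libraries at 1730 to 6277 normalised counts. Male libraries held 0 to 5.80 normalised counts of Xist, the RNA that silences an X chromosome, against 11954 to 19203 in female libraries. The summed level of 8 interstitial progenitor markers was 386401 to 417344 in male DPP4_pos and 35154 to 45680 in male DPP4_neg libraries, but 372186 to 432014 in female DPP4_pos and 213119 to 279451 in female DPP4_neg libraries. The summed level of 8 mammary epithelial markers was 9.86 to 27.6 in male DPP4_neg libraries, against 219 to 378 in female DPP4_pos and 4048 to 9737 in female DPP4_neg libraries, where none of the 8 was at 0. The summed level of 8 mesothelial markers was 37.0 to 78.1 in male DPP4_neg libraries, against 419 to 636 in female DPP4_pos and 6806 to 16492 in female DPP4_neg libraries. In the gonadal depot this sum was 330 to 474 in male FIP, 292 to 421 in male APC, 259 to 304 in female FIP and 886 to 1134 in female APC libraries. Which cells gave the high sum in female DPP4_neg libraries, where the mammary epithelial markers were also highest, was not tested. The summed level of 7 mature adipocyte markers was 2468 to 3006 in male DPP4_neg and 380 to 671 in female DPP4_neg libraries. The part of these markers in the results was not tested. In female DPP4_neg replicate 1, Dpp4 stood at 4213 normalised counts, against 2124 and 1150 in replicates 2 and 3, and Pi16 at 11178, against 6285 and 3360. Female DPP4_pos libraries held 17356 to 20848 normalised counts of Dpp4 and 54926 to 69536 of Pi16. Both genes thus differed more between these female groups than the summed interstitial markers did. Each sum adds normalised counts, so that abundant markers weigh most in it. In sorted bulk samples, fewer cells that express a gene and less RNA per cell cannot be told apart.

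The 9 enzymes fell into opposite patterns. Sult1e1, Hsd11b1, Srd5a1 and Cyp1b1 were higher in male than in female cells in each of the 4 subpopulations. For Srd5a1 in DPP4_neg the libraries of the sexes overlapped and the call depended on single libraries. Akr1c18 and Akr1c14 were lower in male than in female cells in each of the 4, and Cyp7b1 was lower in males in 3 of the 4. Akr1c18 was also higher in FIP than in APC and higher in DPP4_pos than in DPP4_neg in both sexes, as was Srd5a1, whereas Hsd11b1 and Cyp1b1 were lower in FIP and in DPP4_pos in both sexes. Hsd17b11 varied least, with group means between 706 and 910 normalised counts.

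**Figure D1:**
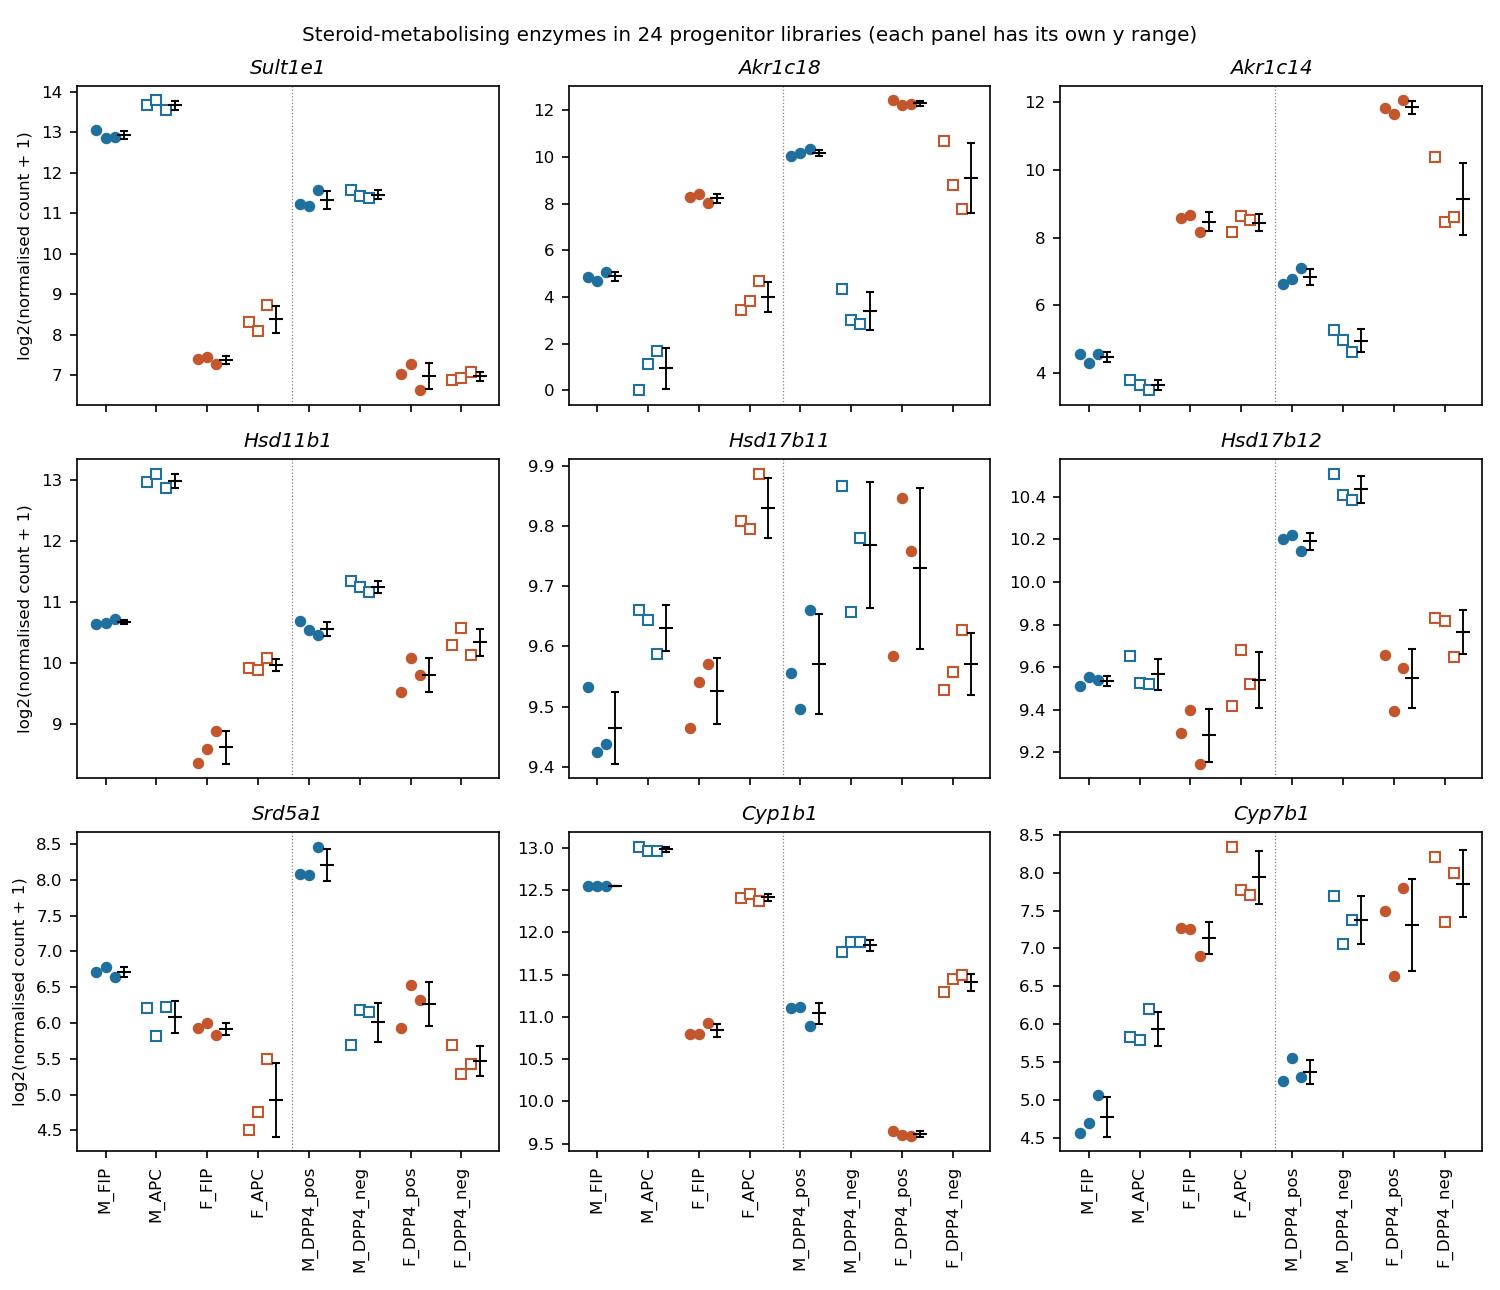
Normalised counts of the 9 enzymes, as log2(normalised count + 1), in 24 libraries (points) with the mean and SD of each group of 3 (black bars). Filled points are FIP and DPP4_pos, open points are APC and DPP4_neg, blue is male and orange is female, the dotted line divides gonadal from inguinal groups, and each panel has its own y range. Male Sult1e1 lies at 2306 or above and female Sult1e1 at 427 or below in every library, while Hsd17b11 spans 686 to 946.

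Per kilobase of exon, the highest group mean was that of Sult1e1 in male APC (10537 normalised counts per kilobase), followed by Akr1c18 in female DPP4_pos (4175), Hsd11b1 in male APC (1904), Cyp1b1 in male APC (1384) and Akr1c14 in female DPP4_pos (1144). The highest group means of Hsd17b12 (575), Hsd17b11 (279), Cyp7b1 (115) and Srd5a1 (102) were lower on the same scale. The spans between groups also differed. Highest and lowest group means were 105-fold apart for Sult1e1, 321-fold for Akr1c14, 20.3-fold for Hsd11b1, 10.3-fold for Cyp1b1, 9.64-fold for Srd5a1, 9.33-fold for Cyp7b1, 2.22-fold for Hsd17b12 and 1.29-fold for Hsd17b11. Akr1c18 has no such ratio here, since its lowest group, male APC, held 3 reads in all.

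**Figure D2:**
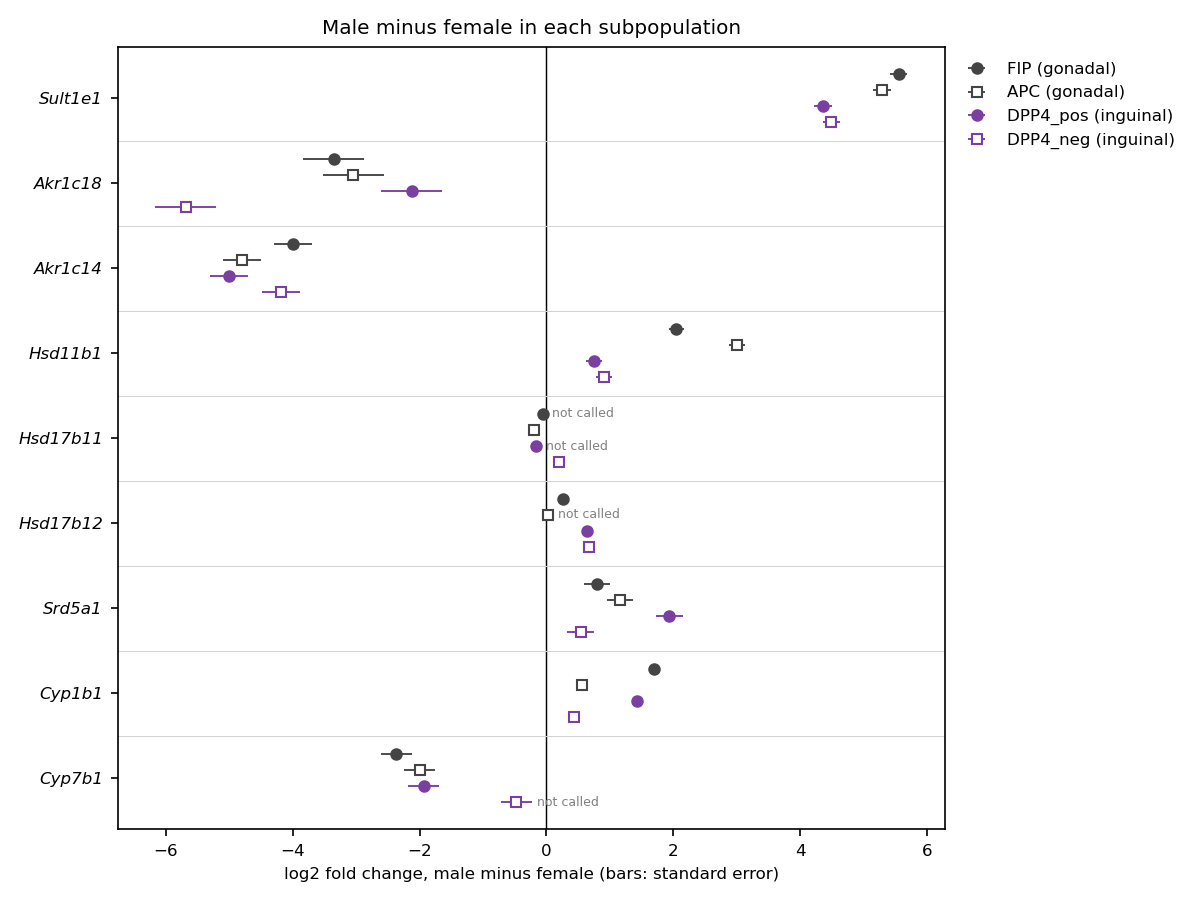
Male minus female log2 fold change of the 9 enzymes in FIP, APC, DPP4_pos and DPP4_neg (points, from top to bottom within each gene) with the standard error of the limma fit (bars). Sult1e1 lies between 4.36 and 5.55, Akr1c14 between -5.00 and -3.99, and the 4 differences marked as not called belong to Hsd17b11, Hsd17b12 and Cyp7b1.

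In each of the 12 comparisons of groups, 6 to 8 of the 9 enzymes were called, beside 36.9% to 66.1% of all tested genes. Because the 9 were chosen with earlier results of these data known, the counts do not test the set against all genes. The same holds for the other gene lists below. In male against female FIP, 5 were higher and 3 lower, where 18.2% of tested genes were called higher and 19% lower (37.2% in all). In male against female APC, 4 were higher and 4 lower (22.4% and 22.1%, 44.4% in all). In male against female DPP4_pos, 5 were higher and 3 lower (27.1% and 25.5%, 52.6% in all). The count was 6 higher and 2 lower in male against female DPP4_neg (27.1% and 30.3%, 57.4% in all). Each of these 4 counts has 8 of 9 enzymes called. In FIP against APC, 3 were higher and 4 lower in males (18.9% and 18%, 36.9% in all), and 2 higher and 6 lower in females (21.3% and 18.1%, 39.4% in all). In DPP4_pos against DPP4_neg, 3 were higher and 5 lower in males (25.2% and 25.3%, 50.5% in all), and 3 higher and 3 lower in females (22.6% and 27.1%, 49.7% in all). Between depots the background was higher still in males. In APC against DPP4_neg, 3 were higher and 4 lower in males (33.1% and 33%, 66.1% in all), and 3 higher and 5 lower in females (26.8% and 32.2%, 59% in all). In FIP against DPP4_pos, 2 were higher and 5 lower in males (32.6% and 32.4%, 65% in all), and 2 higher and 5 lower in females (22.1% and 22.6%, 44.7% in all). The median log2 fold change of the 9 was 0.26 in male against female FIP and 0.64 in DPP4_pos, against -0.02 and 0.00 over all genes, and it hides the opposite directions of single enzymes. The comparisons share libraries and are not independent of each other.

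A difference between the sexes was called for 2 of the 9 in FIP minus APC, 1 more positive and 1 more negative in males, where 5.46% and 5.33% of all genes were (10.8% in all). For DPP4_pos minus DPP4_neg it was called for 5, with Akr1c18, Srd5a1 and Cyp1b1 more positive in males and Hsd17b11 and Cyp7b1 more negative (16.4% and 12.6% of all genes, 29% in all). For APC minus DPP4_neg, Sult1e1, Akr1c18 and Hsd11b1 were more positive in males and Hsd17b11, Hsd17b12 and Cyp7b1 more negative (22.6% and 20.3%, 42.9% in all). For FIP minus DPP4_pos, Sult1e1, Hsd11b1 and Cyp1b1 were more positive in males and Hsd17b12 and Srd5a1 more negative (15.7% and 19.2%, 34.9% in all). Among these last calls, that of Cyp1b1 was lost without any 1 of 4 libraries and that of Hsd17b12 after quantile normalization.

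**Figure D3:**
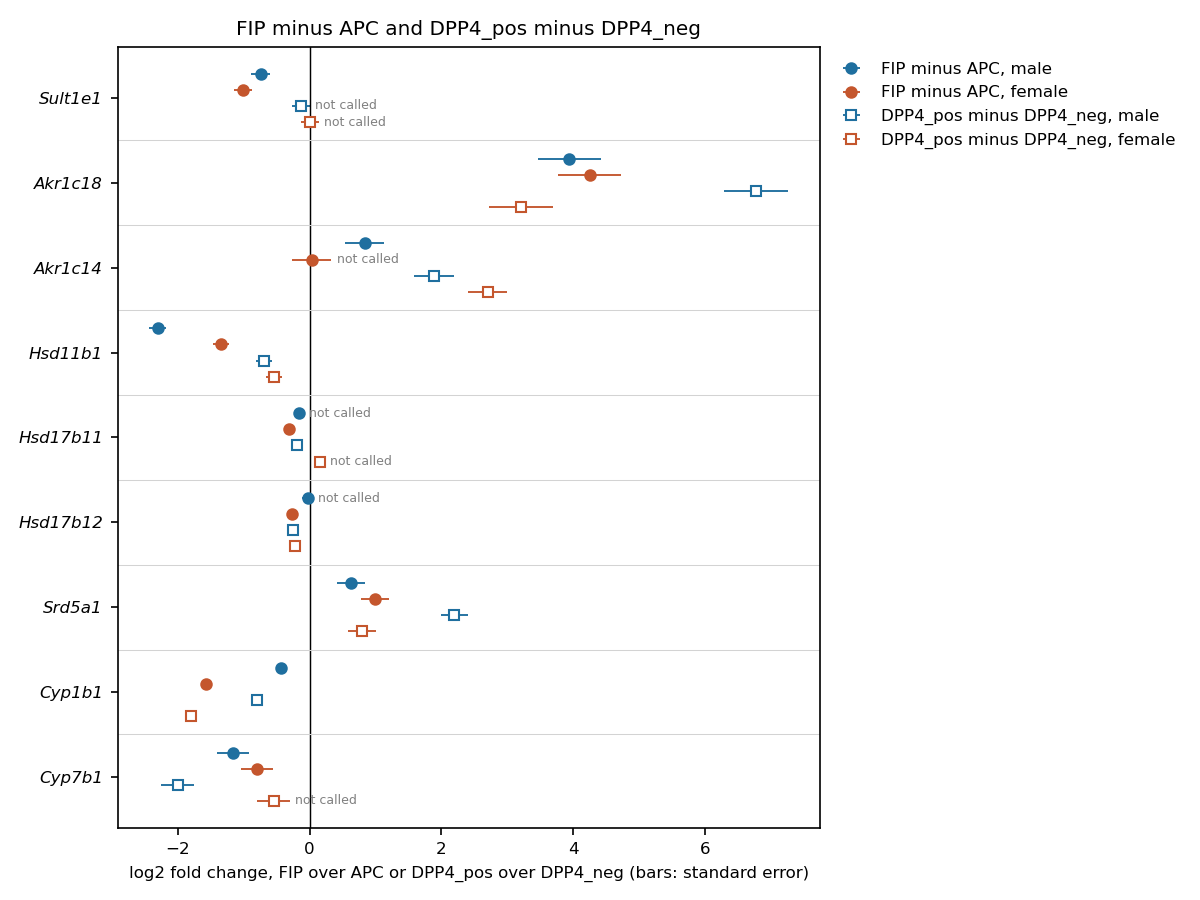
Log2 fold change of the 9 enzymes in FIP over APC (circles) and in DPP4_pos over DPP4_neg (squares), for males (blue) and females (orange), with the standard error of the limma fit (bars). Akr1c18 lies right of 3 in all 4 comparisons and Hsd11b1 and Cyp1b1 lie left of 0 in all 4, while Sult1e1 was called in FIP over APC only.

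Sult1e1 (chr5:87575968-87591611 on the minus strand, GRCm38) was higher in males in every subpopulation. The 250 bases before its RefSeq start site (GRCm38.p6, chr5:87591612-87591861, minus strand, 5' to 3') are shown because no other of the 9 was as far above the female level in males, and the capitals mark a nuclear receptor half-site (AGGTCA, here read on the other strand), 113 bases before the start.
Sult1e1: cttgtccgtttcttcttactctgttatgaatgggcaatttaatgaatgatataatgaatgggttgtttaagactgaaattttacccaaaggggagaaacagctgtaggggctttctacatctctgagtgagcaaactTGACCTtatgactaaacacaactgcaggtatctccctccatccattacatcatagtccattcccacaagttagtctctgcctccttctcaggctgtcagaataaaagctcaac
The motifs searched, on both strands, were AGGTCA, the steroid half-site AGAACA (in 16.1% of windows), the xenobiotic response core GCGTG, the TATA box TATAAA (12.4%) and the CCAAT box, and no motif contains another. AGGTCA is found in 14% of 32851 mouse promoter windows of this length, so that its presence describes the sequence and nothing more. Windows for 8 of the 9 enzymes were matched by symbol, all but that of Cyp7b1.

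In male FIP libraries Sult1e1 stood at 8465, 7407 and 7590 normalised counts, and in female FIP libraries at 167, 175 and 154. Male APC libraries held 13056, 14144 and 12059 normalised counts and female APC libraries 317, 272 and 427. In the inguinal depot, male DPP4_pos libraries held 2409, 2306 and 3051 and female DPP4_pos libraries 129, 153 and 97.5. Male DPP4_neg libraries held 3071, 2760 and 2645 and female DPP4_neg libraries 118, 121 and 135. No male library overlapped any female one. The male minus female log2 fold change was 5.55 in FIP, 5.29 in APC, 4.36 in DPP4_pos and 4.5 in DPP4_neg, each with a standard error of 0.14 and adjusted p of 5.56e-18 or below (limma with Benjamini-Hochberg adjustment over 14517 genes, as for all adjusted p-values here). By size of log2 fold change among the genes tested, Sult1e1 ranked 3rd highest in FIP, 5th in APC, 9th in DPP4_pos and 6th in DPP4_neg. In the order of group means (± SD, n = 3 each), male APC (13086 ± 1043) came before male FIP (7821 ± 565), male DPP4_neg (2825 ± 220), male DPP4_pos (2589 ± 404), female APC (339 ± 79.8), female FIP (165 ± 10.4), female DPP4_pos (127 ± 27.9) and female DPP4_neg (124 ± 9.05). Among neighbours in this order, the DPP4_neg and DPP4_pos groups of each sex overlapped and the others did not. As ratios of mean normalised counts, male levels were 47.3, 38.6, 20.5 and 22.7 times the female levels in these subpopulations.

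Within a depot, Sult1e1 was lower in FIP than in APC in both sexes. The log2 difference was -0.74 ± 0.14 in males (adjusted p = 1.3e-04) and -1.01 ± 0.14 in females (adjusted p = 2.09e-06), where the error is the standard error of the fit. Between the inguinal subpopulations the libraries overlapped in both sexes, and DPP4_pos minus DPP4_neg was -0.13 ± 0.14 in males (adjusted p = 0.445) and 0.00 ± 0.14 in females (adjusted p = 0.984). A difference of that size was not detectable against this spread, which does not show that the levels were equal.

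Gonadal cells held more Sult1e1 than inguinal cells. For APC minus DPP4_neg the value was 2.21 ± 0.14 in males (adjusted p = 5.48e-13) and 1.42 ± 0.14 in females (adjusted p = 3.66e-09), and FIP minus DPP4_pos was 1.6 ± 0.14 in males (adjusted p = 2.51e-10) and 0.41 ± 0.14 in females (adjusted p = 0.0203). The last of these calls was lost without female DPP4_pos replicate 3 (0.23, adjusted p = 0.19) and, at 0.40 with adjusted p = 0.0515, without female FIP replicate 1. It was also lost without female FIP replicate 2, after quantile normalization (0.31, adjusted p = 0.0774) and in the fit on the compared groups alone (adjusted p = 0.0603). The depot difference was larger in males than in females, by 0.79 ± 0.20 for APC minus DPP4_neg (adjusted p = 0.00202) and by 1.20 ± 0.20 for FIP minus DPP4_pos (adjusted p = 4.2e-05).

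Female libraries also held low levels of Y-linked transcripts. The summed level of Ddx3y, Eif2s3y, Kdm5d and Uty was 64.7 to 73.3 normalised counts in female FIP libraries, which is 2.01% to 2.28% of the mean of male FIP libraries, while female Sult1e1 stood at 1.97% to 2.24% of the male FIP mean. In APC the Y-linked sum of female libraries was 3.19% to 5.41% of the male mean and Sult1e1 2.08% to 3.27%. In DPP4_pos the shares were 0.798% to 1.44% for the Y-linked sum and 3.77% to 5.92% for Sult1e1, and in DPP4_neg 1.21% to 1.93% and 4.16% to 4.76%. Thus the female Sult1e1 share lay above the Y-linked share in all 6 inguinal libraries. In the gonadal groups it lay near it or below it, and the part of the Y-linked transcripts' source in the female Sult1e1 level was not tested. In female APC replicates 1 to 3 the Y-linked sum was 124, 101 and 171, beside Sult1e1 at 317, 272 and 427. In female FIP replicates 1 to 3 the sum was 66.5, 73.3 and 64.7, beside Sult1e1 at 167, 175 and 154. Both thus ranked these libraries alike, and they did so in the inguinal groups too. In female DPP4_neg replicates 1 to 3 the sum was 38.9, 59.6 and 61.9, beside Sult1e1 at 118, 121 and 135. In female DPP4_pos replicates 1 to 3 it was 38.0, 59.5 and 33.05, beside 129, 153 and 97.5. The part of that source in the female FIP minus APC and depot differences, and in sex differences that use them, was not tested either.

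Akr1c18 (chr13:4132615-4150646 on the minus strand) and Akr1c14 (chr13:4048991-4090560 on the plus strand) are neighbours, 41926 bases apart by GENCODE, in a cluster of 8 Akr1c genes. Their promoter windows (RefSeq, GRCm38.p6, 5' to 3') are shown because both genes were higher in females and in DPP4_pos cells. The windows lie at chr13:4150647-4150896 on the minus strand and chr13:4059341-4059590 on the plus strand, and the window of Akr1c14 lies inside the gene's annotated span. Capitals mark a CCAAT box read on the other strand, 152 bases before the start of Akr1c14, a motif found in 33.8% of windows. None of the 5 motifs was found in the Akr1c18 window.
Akr1c18: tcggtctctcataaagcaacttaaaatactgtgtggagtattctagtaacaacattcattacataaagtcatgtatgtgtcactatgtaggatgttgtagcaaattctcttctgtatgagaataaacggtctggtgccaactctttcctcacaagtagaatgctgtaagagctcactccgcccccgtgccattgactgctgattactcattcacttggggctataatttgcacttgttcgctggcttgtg
Akr1c14: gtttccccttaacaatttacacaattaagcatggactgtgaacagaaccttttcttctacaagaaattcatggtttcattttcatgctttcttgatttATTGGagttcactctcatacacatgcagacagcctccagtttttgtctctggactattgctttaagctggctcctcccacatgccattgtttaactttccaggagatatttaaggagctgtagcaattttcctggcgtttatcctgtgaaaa
The open reading frames of Akr1c14 and Akr1c18 are 972 bases each and 76.0% identical, and Akr1c18 is 73.9% to 76.8% identical to the other 6. Of the 50-base windows of its transcripts, Akr1c18 shared 0.581% with another gene (Akr1cl) and Akr1c14 shared 5.80% (the pseudogene Gm18857). How reads of such windows were assigned was not tested, so that they may be missing from these counts or wrongly placed in them.

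Akr1c18 followed both the subpopulation and the sex. Male FIP libraries held 28.3, 25.0 and 32.5 normalised counts, and male APC libraries 0, 1.16 and 2.26, from 98 and 3 reads. Female FIP libraries held 311, 336 and 258 and female APC libraries 9.90, 13.1 and 24.9. Male DPP4_pos libraries held 1060, 1142 and 1276 and male DPP4_neg libraries 19.3, 7.15 and 6.17. Female DPP4_pos libraries held 5447, 4750 and 4920 and female DPP4_neg libraries 1656, 446 and 218. FIP lay above APC and DPP4_pos above DPP4_neg in every library of the same sex. Female DPP4_neg replicate 1 stood above the other 2 of its group. The order of group means (± SD, n = 3 each) was female DPP4_pos (5039 ± 363), male DPP4_pos (1160 ± 109), female DPP4_neg (773 ± 773), female FIP (302 ± 39.9), male FIP (28.6 ± 3.77), female APC (15.96 ± 7.90), male DPP4_neg (10.9 ± 7.31) and male APC (1.14 ± 1.13). Neighbours that overlapped were male DPP4_pos with female DPP4_neg, female DPP4_neg with female FIP, and female APC with male DPP4_neg.

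FIP minus APC was 3.94 ± 0.48 in males (adjusted p = 2.96e-07) and 4.25 ± 0.48 in females (adjusted p = 8.82e-08). For males the ratio of reads, scaled by depth, was 25.7 with a 95% counting interval of 8.53 to 127 (counting error only) because male APC held 3 reads, and with a pseudocount of 10 the male log2 difference was 1.79. DPP4_pos minus DPP4_neg was 6.77 ± 0.48 in males (adjusted p = 8.86e-12) and 3.21 ± 0.48 in females (adjusted p = 4.36e-06). Akr1c18 was thus among the 12 largest increases in both sexes, 5th in males and 12th in females. The DPP4_pos minus DPP4_neg difference was larger in males than in females by 3.57 ± 0.68 (adjusted p = 2.69e-04). Without female DPP4_neg replicate 1 the female value was 4.01 and the difference between the sexes 2.77 (adjusted p = 4.05e-04). Without female DPP4_neg replicate 3 they were 2.55 and 4.22.

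Male cells held less Akr1c18 than female cells in each subpopulation. Male minus female was -3.35 in FIP (adjusted p = 4.38e-06), -2.12 in DPP4_pos (adjusted p = 6.36e-04) and -5.69 in DPP4_neg (adjusted p = 3.22e-10), each ± 0.48. The DPP4_neg value was -4.89 without female replicate 1 and -6.35 without female replicate 3. In APC it was -3.05 ± 0.48 (adjusted p = 1.16e-05), and female APC held 13.5 times the male level by reads (95% counting interval 4.30 to 68.4). That APC call was lost with edgeR on the recovered reads (adjusted p = 0.183), and with a pseudocount of 10 its value was -1.18 (adjusted p = 0.0131).

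Gonadal cells held less Akr1c18 than the inguinal cells set against them. For FIP minus DPP4_pos the value was -5.30 ± 0.48 in males (adjusted p = 5.61e-10) and -4.06 ± 0.48 in females (adjusted p = 1.47e-07). In APC minus DPP4_neg it was -2.46 ± 0.48 in males (adjusted p = 7.97e-05), a ratio of 9.97 in favour of DPP4_neg by reads (95% counting interval 3.11 to 51.0). That male call was lost with a pseudocount of 10 (-0.86, adjusted p = 0.0507) and with edgeR (adjusted p = 0.233). The female value was -5.11 ± 0.48 (adjusted p = 1.71e-09), -4.30 without female DPP4_neg replicate 1 and -5.76 without replicate 3. Male minus female of APC minus DPP4_neg was 2.64 ± 0.68 (adjusted p = 0.0028), 1.84 without female DPP4_neg replicate 1 and 3.30 without replicate 3. That call was lost with edgeR (adjusted p = 0.67) and with DESeq2 (adjusted p = 0.107) on the recovered reads.

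Akr1c14 divided the libraries by sex. Male FIP libraries held 22.7, 18.7 and 22.8 normalised counts, and female FIP libraries 385, 407 and 285. Its male APC values were 12.9, 11.6 and 10.2, and its female APC values 284, 398 and 369. Male DPP4_pos libraries held 98.3, 110 and 137 and male DPP4_neg libraries 37.5, 30.6 and 23.4. Among inguinal female libraries, DPP4_pos held 3617, 3249 and 4249 and DPP4_neg 1331, 351 and 386. No male library overlapped a female one, and the highest male value (137, in DPP4_pos) was below the lowest female value (284, in APC).

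Male minus female of Akr1c14 was -3.99 in FIP, -4.80 in APC, -5.00 in DPP4_pos and -4.19 in DPP4_neg, each ± 0.30, with adjusted p of 1.06e-10 or below. With a pseudocount of 10 the APC value was -4.05, and the DPP4_neg value was -3.57 without female replicate 1. DPP4_pos minus DPP4_neg was 1.89 ± 0.30 in males (adjusted p = 8.58e-06) and 2.70 ± 0.30 in females (adjusted p = 4.02e-08), or 3.32 in females without DPP4_neg replicate 1. With that library left out, the difference between the sexes in this comparison was called (-1.43, adjusted p = 1.45e-04), whereas with all libraries it was -0.81 ± 0.42 (adjusted p = 0.156). FIP minus APC was 0.84 ± 0.30 in males (adjusted p = 0.0301) and 0.03 ± 0.30 in females (adjusted p = 0.952). The male call was lost without male APC replicate 2 or 3 or male FIP replicate 1 or 3, with adjusted p up to 0.0952, and with a pseudocount of 10 (adjusted p = 0.142).

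Gonadal cells held less Akr1c14 than inguinal cells. In FIP minus DPP4_pos it was -2.36 ± 0.30 in males (adjusted p = 1.76e-07) and -3.37 ± 0.30 in females (adjusted p = 1.03e-09). APC minus DPP4_neg was -1.31 ± 0.30 in males (adjusted p = 4.6e-04), a call that was lost with edgeR (-1.38, adjusted p = 0.155). In females it was -0.70 ± 0.30 (adjusted p = 0.0473) with overlapping libraries, and it was -0.08 (adjusted p = 0.736) without female DPP4_neg replicate 1. That female call was also lost without any 1 of the 3 female APC libraries. The difference between the sexes was -0.61 ± 0.42 (adjusted p = 0.259) with all libraries, and it was called without female DPP4_neg replicate 1 (-1.23, adjusted p = 4.33e-04).

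**Figure D4:**
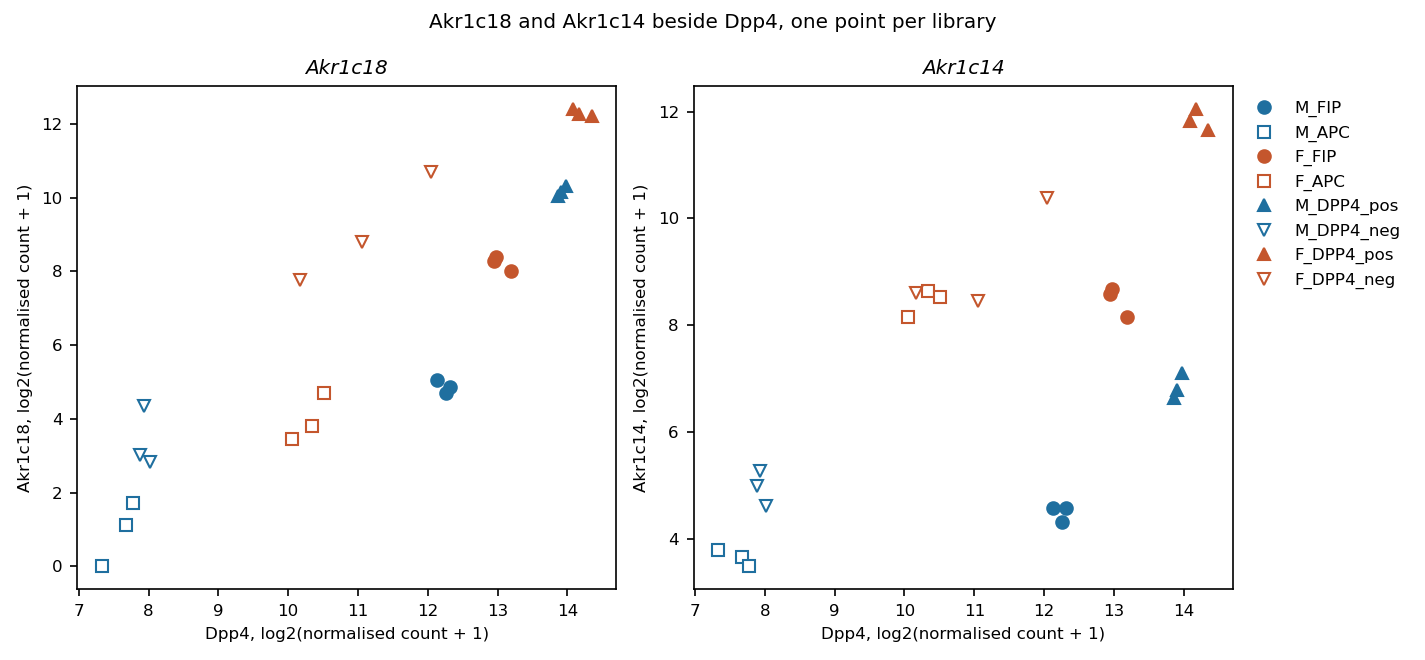
Akr1c18 (left) and Akr1c14 (right) against Dpp4, the surface protein gene used for the inguinal sort, each as log2(normalised count + 1), with 1 point for each of 24 libraries. Triangles are inguinal and circles and squares gonadal groups, blue is male and orange is female. The female DPP4_neg library with 4213 normalised counts of Dpp4 also has the most Akr1c18 (1656) and Akr1c14 (1331) of its group.

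Set against Dpp4 in the same library, both aldo-keto reductases differed by sex. In males Akr1c18 stood at 7.12, 7.44 and 7.94 normalised counts per 100 of Dpp4 in DPP4_pos and at 7.95, 3.04 and 2.39 in DPP4_neg libraries. In females it stood at 31.4, 22.8 and 26.7 per 100 in DPP4_pos and at 39.3, 21.0 and 19 in DPP4_neg libraries. The subpopulations overlapped in both sexes, in males through 1 DPP4_neg library, and every female value exceeded every male one. Akr1c14 was lower per 100 of Dpp4 in male DPP4_pos libraries, at 0.661, 0.714 and 0.849, than in male DPP4_neg libraries, at 15.5, 13.0 and 9.09. In females it stood at 20.8, 15.6 and 23.1 in DPP4_pos and at 31.6, 16.5 and 33.5 in DPP4_neg libraries, which overlapped. Dpp4, the gene of the sort, stood at 14883 to 16085 in male DPP4_pos and 235 to 258 in male DPP4_neg libraries. Any gene that rises less than Dpp4 falls on this scale, as Akr1c14 did in males, although its own count was higher in male DPP4_pos. The part of DPP4-expressing cells in the female DPP4_neg values was not tested.

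**Figure D5:**
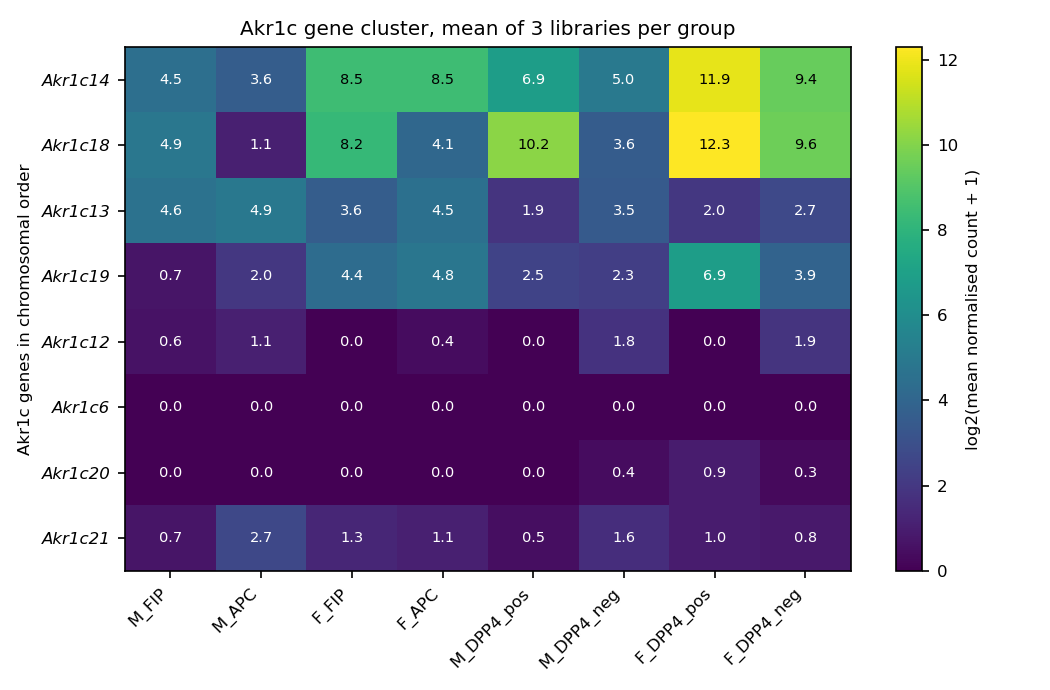
Group means of the 8 genes of the Akr1c cluster, in chromosomal order from top to bottom, as log2(mean normalised count + 1), with 3 libraries per group. Akr1c14 and Akr1c18 reach 3705 and 5039 normalised counts in female DPP4_pos cells, while Akr1c12, Akr1c6, Akr1c20 and Akr1c21 stay below 10 in every library.

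Elsewhere in the cluster the levels were low. Akr1c19, which lies 2 genes beyond Akr1c18, averaged at most 4.52 normalised counts in any male group, against 115 ± 6.49 in female DPP4_pos and 14.1 ± 6.90 in female DPP4_neg libraries (SD, n = 3 each). Its male minus female log2 fold change was -3.87 in FIP, -2.99 in APC and -4.41 in DPP4_pos (± 0.42 each, all called). Akr1c13 differed between depots in the other direction, with 29.5 ± 0.54 in male APC and 10.2 ± 2.08 in male DPP4_neg libraries (log2 difference 1.46 ± 0.33, adjusted p = 3.64e-04). Akr1c12, Akr1c20 and Akr1c21 had 23, 5 and 37 reads over 24 libraries, and Akr1c6 had 0.

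Hsd11b1 (chr1:193221640-193264045 on the minus strand) was highest in male APC. Male FIP libraries held 1605, 1616 and 1681 normalised counts and male APC libraries 8020, 8767 and 7489. Female FIP libraries held 330, 389 and 476 and female APC libraries 975, 951 and 1087. In the inguinal depot, male DPP4_pos libraries held 1653, 1486 and 1406 and male DPP4_neg libraries 2612, 2421 and 2286, while female DPP4_pos libraries held 736, 1087 and 896 and female DPP4_neg libraries 1262, 1534 and 1128. The male APC libraries were all above every other library, and the female FIP libraries all below.

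FIP minus APC of Hsd11b1 was -2.30 ± 0.12 in males (adjusted p = 9.6e-14) and -1.35 ± 0.12 in females (adjusted p = 2.73e-09), a sex difference of -0.96 ± 0.18 (adjusted p = 6e-04). DPP4_pos minus DPP4_neg was -0.69 ± 0.12 in males (adjusted p = 4.89e-05) and -0.54 ± 0.12 in females (adjusted p = 8.37e-04). Male minus female was 2.05 in FIP, 3.01 in APC, 0.76 in DPP4_pos and 0.91 in DPP4_neg (± 0.12 each, adjusted p of 1.53e-05 or below). The difference between gonadal and inguinal cells was more positive in males than in females. For APC minus DPP4_neg the value was 1.73 ± 0.12 in males (adjusted p = 7.21e-12) and -0.37 ± 0.12 in females (adjusted p = 0.0126), a difference of 2.10 ± 0.18 between the sexes (adjusted p = 6.99e-10). The female value was -0.25 and no longer called without DPP4_neg replicate 2 (adjusted p = 0.111) or, at -0.23, after quantile normalization (adjusted p = 0.0965). FIP minus DPP4_pos was 0.11 ± 0.12 in males (adjusted p = 0.442) and -1.18 ± 0.12 in females (adjusted p = 2.08e-08), and the male value was called after quantile normalization (0.45, adjusted p = 0.00252).

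H6pd, which supplies NADPH to this enzyme, was lower in FIP than in APC in the same way, at -1.26 ± 0.09 in males and -1.25 ± 0.09 in females. Its male minus female log2 fold change was 0.68 in FIP, 0.69 in APC and 1.18 in DPP4_neg (all called). Of 18 tested genes of a glucocorticoid response list, 3 rose and 9 fell in FIP against APC in males (18.9% and 18% of all genes), with a median of -0.36. In females 2 rose and 12 fell (21.3% and 18.1%), with a median of -0.39. The medians over all genes were -0.03 in males and -0.0026 in females. Cebpd, a transcription factor of early adipogenesis, fell by 0.72 in male FIP and by 0.65 in female FIP on the log2 scale. Tsc22d3, which encodes the glucocorticoid-induced protein GILZ, fell by 0.55 in male FIP and by 0.80 in female FIP. In male against female APC, 2 genes of the list rose and 9 fell (22.4% and 22.1% of all genes), among them Glul (-1.67 ± 0.10) and Sult1a1 (-1.16 ± 0.14).

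Srd5a1 (chr13:69573449-69611485 on the minus strand) was highest in male DPP4_pos. Those libraries held 270, 268 and 351 normalised counts, against 50.7, 71.5 and 70.3 in male DPP4_neg. Female DPP4_pos libraries held 60.0, 91.7 and 79.3 and female DPP4_neg libraries 50.8, 37.9 and 42.1. Male FIP held 104, 109 and 99.1 and male APC 73.0, 55.6 and 73.5, while female FIP held 59.8, 63.1 and 55.7 and female APC 21.8, 26.2 and 44.2. Each male DPP4_pos library exceeded every other library. The gene Gm17108 shares 15.1% of the 50-base windows of the Srd5a1 transcripts. How reads of such windows were assigned was not tested, so that the count of Srd5a1 is uncertain.

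DPP4_pos minus DPP4_neg of Srd5a1 was 2.19 ± 0.21 in males (adjusted p = 1.95e-09) and 0.79 ± 0.21 in females (adjusted p = 0.00252), a sex difference of 1.4 ± 0.29 (adjusted p = 7.43e-04). FIP minus APC was 0.63 ± 0.21 in males (adjusted p = 0.0191) and 0.99 ± 0.21 in females (adjusted p = 4.07e-04). The male FIP call was lost without male APC replicate 2 or male FIP replicate 2, with adjusted p up to 0.104. Male minus female was 0.79 in FIP (adjusted p = 0.00372), 1.16 in APC (adjusted p = 6.01e-05), 1.94 in DPP4_pos (adjusted p = 2.5e-08) and 0.54 in DPP4_neg (adjusted p = 0.0296). The DPP4_neg call was lost without female replicate 2 or 3 or male replicate 2 or 3, where the value stayed between 0.45 and 0.70 over all leave-outs. It was also lost in the fit on the compared groups alone (adjusted p = 0.063), and the DPP4_neg libraries of the sexes overlapped. For FIP minus DPP4_pos the value was -1.49 ± 0.21 in males (adjusted p = 8.07e-07) and -0.35 ± 0.21 in females (adjusted p = 0.184). In APC minus DPP4_neg it was 0.07 ± 0.21 in males (adjusted p = 0.764) and -0.55 ± 0.21 in females (adjusted p = 0.0271), and the female call was lost without female APC replicate 1 or 2 or DPP4_neg replicate 1.

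The 2 hydroxysteroid dehydrogenases Hsd17b11 (chr5:103989765-104021796 on the minus strand) and Hsd17b12 (chr2:94032697-94157909 on the minus strand) changed little. Hsd17b11 lay between 686 and 946 normalised counts in all 24 libraries, and neighbouring groups overlapped at every step of its order. The largest of its differences in the 12 comparisons of groups was FIP minus APC in females, -0.31 ± 0.07 (adjusted p = 0.00124). Male minus female was -0.20 in APC (adjusted p = 0.0248) and 0.20 in DPP4_neg (adjusted p = 0.021). The APC call was lost without female or male APC replicate 3, and the DPP4_neg call without female replicate 1 or 2 or male replicate 1 or 3, with adjusted p up to 0.0889 and 0.093. APC minus DPP4_neg in females was 0.26 ± 0.07 (adjusted p = 0.00308). FIP minus DPP4_pos in females was -0.20 (adjusted p = 0.022) and DPP4_pos minus DPP4_neg in males -0.20 (adjusted p = 0.0235), and both calls were lost without 1 library or another, with adjusted p up to 0.135 and 0.108. The libraries concerned were female DPP4_pos replicate 2 or 3 or female FIP replicate 1 for the first, and male DPP4_neg replicate 1 or 3 or male DPP4_pos replicate 1 or 2 for the second.

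Hsd17b12 was highest in male inguinal cells. Male DPP4_pos libraries held 1178, 1194 and 1131 normalised counts and male DPP4_neg libraries 1455, 1359 and 1337, against 806, 671 and 772 in female DPP4_pos and 910, 902 and 802 in female DPP4_neg libraries. The male and female inguinal libraries did not overlap. Male minus female was 0.64 ± 0.08 in DPP4_pos (adjusted p = 2.84e-07) and 0.67 ± 0.08 in DPP4_neg (adjusted p = 1.2e-07), 0.26 ± 0.08 in FIP (adjusted p = 0.0135, lost without female FIP replicate 3) and 0.03 ± 0.08 in APC (adjusted p = 0.813). APC minus DPP4_neg was -0.87 ± 0.08 in males (adjusted p = 7.32e-10) and -0.23 ± 0.08 in females (adjusted p = 0.0176), and the sexes differed by -0.64 ± 0.11 (adjusted p = 5.85e-05). The female call was lost without female APC replicate 1 or DPP4_neg replicate 1 or 2. In FIP minus DPP4_pos it was -0.65 ± 0.08 in males (adjusted p = 9.79e-08) and -0.27 ± 0.08 in females (adjusted p = 0.00805), where the female call was lost without female DPP4_pos replicate 1 or FIP replicate 3. Within depots its differences were small. FIP minus APC was -0.03 ± 0.08 in males (adjusted p = 0.802) and -0.26 ± 0.08 in females (adjusted p = 0.0112, lost without female APC replicate 2 or FIP replicate 3). Likewise DPP4_pos minus DPP4_neg was -0.24 ± 0.08 in males (adjusted p = 0.013, lost without male DPP4_pos replicate 3) and -0.22 ± 0.08 in females (adjusted p = 0.0262, lost without female DPP4_neg replicate 1 or 2 or DPP4_pos replicate 2).

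Cyp1b1 (chr17:79706940-79715061 on the minus strand) was highest in male APC and lowest in female DPP4_pos. Its promoter window (RefSeq, GRCm38.p6, chr17:79715062-79715311, minus strand, 5' to 3') is shown because Cyp1b1 is a known target of the aryl hydrocarbon receptor, and the capitals mark a xenobiotic response core (GCGTG, read on the other strand) 76 bases before the start, a motif in 28.2% of windows.
Cyp1b1: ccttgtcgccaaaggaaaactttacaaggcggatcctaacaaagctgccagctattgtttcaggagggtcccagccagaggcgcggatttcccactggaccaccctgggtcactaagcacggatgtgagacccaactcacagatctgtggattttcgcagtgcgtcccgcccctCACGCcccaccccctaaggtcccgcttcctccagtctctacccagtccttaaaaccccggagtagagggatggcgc
Male FIP libraries held 5969, 5969 and 5964 normalised counts and male APC libraries 8250, 7991 and 8007. Female FIP libraries held 1779, 1775 and 1953 and female APC libraries 5440, 5621 and 5307. Male DPP4_pos libraries held 2209, 2224 and 1902 and male DPP4_neg libraries 3485, 3780 and 3781, while female DPP4_pos libraries held 802, 775 and 769 and female DPP4_neg libraries 2515, 2784 and 2880. Within each sex and depot the subpopulations did not overlap.

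Cyp1b1 was lower in FIP and in DPP4_pos in both sexes, and more so in females. FIP minus APC was -0.44 ± 0.07 in males (adjusted p = 6.99e-06) and -1.57 ± 0.07 in females (adjusted p = 6.08e-15), and DPP4_pos minus DPP4_neg was -0.80 ± 0.07 in males (adjusted p = 1.27e-10) and -1.80 ± 0.07 in females (adjusted p = 2.75e-16). Male minus female of these differences was 1.13 ± 0.09 (adjusted p = 6.73e-09) and 0.99 ± 0.09 (adjusted p = 1.5e-08). Accordingly male minus female was 1.70 in FIP and 1.43 in DPP4_pos but 0.57 in APC and 0.43 in DPP4_neg (± 0.07 each, adjusted p of 4.11e-06 or below). Gonadal cells held more than inguinal cells. FIP minus DPP4_pos was 1.5 in males and 1.23 in females, and APC minus DPP4_neg was 1.13 in males and 1.0 in females, all called. Of 6 tested genes of an aryl hydrocarbon receptor list, 2 rose and 2 fell in FIP against APC in males and 1 rose and 1 fell in females, where 36.9% and 39.4% of all genes were called. Ugt1a6a, a glucuronosyltransferase of that list, rose in FIP by 0.68 ± 0.12 in males and 0.79 ± 0.12 in females. It was lower in males than in females, at -0.62 in FIP and -1.38 in DPP4_pos, so that it moved against Cyp1b1 in both comparisons. The genes of the list that fell in FIP, 2 in males and 1 in females, moved as Cyp1b1 did there.

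Cyp7b1 (chr3:18071944-18243890 on the minus strand) was lower in males. Male FIP libraries held 22.7, 25.0 and 32.5 normalised counts, against 154, 152 and 118 in female FIP. Male APC held 55.8, 54.5 and 72.4 and female APC 323, 218 and 207, and male DPP4_pos held 37.3, 46.1 and 38.5 and female DPP4_pos 179, 98.5 and 221. In DPP4_neg the sexes overlapped, with 206, 133 and 165 in males and 295, 163 and 255 in females. Male minus female was -2.37 in FIP (adjusted p = 3.12e-08), -2.0 in APC (adjusted p = 3.16e-07), -1.93 in DPP4_pos (adjusted p = 4.04e-07) and -0.48 in DPP4_neg (adjusted p = 0.102), each ± 0.25. The DPP4_neg value was called without female replicate 2 (-0.73, adjusted p = 0.0212) and without male replicate 1.

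DPP4_pos minus DPP4_neg of Cyp7b1 was -2.0 ± 0.25 in males (adjusted p = 1.8e-07) and -0.55 ± 0.25 in females (adjusted p = 0.0695), which differed by -1.46 ± 0.35 (adjusted p = 0.00245). FIP minus APC was -1.16 ± 0.25 in males (adjusted p = 5.03e-04) and -0.80 ± 0.25 in females (adjusted p = 0.0119), and the female call was lost without female APC replicate 1 or FIP replicate 3 (adjusted p up to 0.0866). For APC minus DPP4_neg the value was -1.44 ± 0.25 in males (adjusted p = 1.54e-05) and 0.08 ± 0.25 in females (adjusted p = 0.788), a sex difference of -1.52 ± 0.35 (adjusted p = 9.99e-04). For FIP minus DPP4_pos the value was -0.60 ± 0.25 in males (adjusted p = 0.0367) and -0.17 ± 0.25 in females (adjusted p = 0.616), and the male call was lost without male DPP4_pos replicate 2 or 3 or male FIP replicate 1 or 2.

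Receptors for some of these steroids were measured as well. Pgr, the progesterone receptor gene, averaged at most 2.26 normalised counts in any male group, against 62.9 in female FIP, 18.1 in female APC, 543 in female DPP4_pos and 317 in female DPP4_neg. Esr1, the estrogen receptor alpha gene, averaged 346 to 1185 over the 8 groups, Nr3c1, the glucocorticoid receptor gene, 1239 to 2396, and Nr3c2, the mineralocorticoid receptor gene, 44.9 to 95.7.

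A wider list of 46 other enzymes of steroid synthesis and inactivation, of which 44 were in the table and 24 were tested, moved in both directions. In FIP against APC, 6 rose and 8 fell in males (18.9% and 18% of all genes) and 5 rose and 9 fell in females (21.3% and 18.1%). In DPP4_pos against DPP4_neg, 6 rose and 10 fell in males (25.2% and 25.3% of all genes) and 8 rose and 8 fell in females (22.6% and 27.1%). Male against female cells had 7 higher and 8 lower in FIP (18.2% and 19% of all genes) and 5 higher and 10 lower in APC (22.4% and 22.1%). In the inguinal depot they had 6 higher and 8 lower in DPP4_pos (27.1% and 25.5%) and 8 higher and 10 lower in DPP4_neg (27.1% and 30.3%). In APC against DPP4_neg, 9 rose and 8 fell in males (33.1% and 33% of all genes) and 11 rose and 6 fell in females (26.8% and 32.2%). In FIP against DPP4_pos, 10 rose and 6 fell in males (32.6% and 32.4%) and 10 rose and 7 fell in females (22.1% and 22.6%). The medians of the list lay between -0.34 and 0.43 on the log2 scale in these 12 comparisons.

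Dhrs9 and Cyp3a13 were among the named enzymes of this list. Dhrs9, a short-chain dehydrogenase that oxidises retinol and some steroids, averaged 679 ± 58.0 normalised counts in male DPP4_pos, 54.9 ± 16.9 in male DPP4_neg, 1648 ± 224 in female DPP4_pos and 275 ± 286 in female DPP4_neg libraries (SD, n = 3 each). DPP4_pos minus DPP4_neg of Dhrs9 was 3.65 ± 0.47 in males and 3.11 ± 0.47 in females (both called). In FIP minus APC it was 0.44 ± 0.47 in males (adjusted p = 0.497) and 2.20 ± 0.47 in females (adjusted p = 4.53e-04). Male minus female of Dhrs9 was -4.12 in FIP, -2.36 in APC and -1.82 in DPP4_neg, all called. Cyp3a13, a cytochrome P450 of the drug-metabolising CYP3A family, averaged 23.0 ± 5.53 in male FIP and 0.386 ± 0.669 in male APC, and 20.3 ± 4.57 in female FIP, with no read in female APC. Hsd17b13, an enzyme of lipid droplets, was lower in males in FIP (-2.17 ± 0.40) and in APC (-2.08 ± 0.40).

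Other enzymes differed in other ways. Hsd11b2, which inactivates glucocorticoids, averaged 23.0 normalised counts in male FIP, 41.7 in male APC, 179 in female FIP and 200 in female APC. Male minus female of Hsd11b2 was -2.91 ± 0.33 in FIP, -2.23 ± 0.33 in APC and -1.97 ± 0.33 in DPP4_pos, where that of Hsd11b1 was positive. In DPP4_neg it was 0.14 ± 0.33 (adjusted p = 0.745), with means of 138.5 in males and 126 in females. It was also lower in DPP4_pos than in DPP4_neg, by -4.31 in males and -2.21 in females. Ch25h, the cholesterol 25-hydroxylase, fell in FIP against APC by 2.23 ± 0.24 in males and 1.67 ± 0.24 in females on the log2 scale. Cyp27a1, the sterol 27-hydroxylase, was higher in males in DPP4_pos (1.67 ± 0.12) and in DPP4_neg (2.22 ± 0.12). Sult1a1, a phenol sulfotransferase, was higher in APC than in DPP4_neg, by 1.75 ± 0.14 in males and 2.27 ± 0.14 in females.

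Enzymes that make steroids from cholesterol were near the bottom of the range. Among 10 genes of steroidogenic gonad or adrenal cells, Star, which carries cholesterol into mitochondria, reached 408 normalised counts and averaged 174 ± 20.4 in male FIP, 356 ± 61.4 in female FIP, 40.5 ± 5.18 in male DPP4_pos and 40.2 ± 3.18 in female DPP4_pos. FIP minus DPP4_pos of Star was 2.08 ± 0.26 in males and 3.10 ± 0.26 in females. Cyp11a1, which cuts the cholesterol side chain, reached 23.95 in any library, and Cyp17a1, Cyp19a1 (aromatase), Hsd3b1 and Hsd3b6 reached 2.77, 2.04, 1.38 and 1.23. Nr5a1, Insl3, Lhcgr and Fshr reached 8.94, 12.3, 4.53 and 1.10. The summed level of the list was 165 to 205 in male FIP, 292 to 411 in female FIP, 92.7 to 120 in male APC and 139 to 199 in female APC libraries, most of it Star.

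Genes that supply these enzymes also differed. Of 8 tested genes for NADPH, electron transfer and sulfate donor supply, 6 rose and 1 fell in male against female DPP4_neg (27.1% and 30.3% of all genes), with a median of 0.98. In DPP4_pos 6 rose and 2 fell (27.1% and 25.5%), with a median of 0.35. Por, the electron donor of microsomal cytochromes P450, averaged 6886 ± 215 in male DPP4_neg and 2813 ± 78.7 in female DPP4_neg libraries (1.29 ± 0.06, adjusted p = 1.53e-14). In male against female FIP, 4 rose and 2 fell (18.2% and 19%), and in APC 3 rose and 2 fell (22.4% and 22.1%). Papss1, which makes the sulfate donor of Sult1e1, was lower in males in FIP (-0.39 ± 0.07) and in DPP4_pos (-0.42 ± 0.07). Papss2 has the same role, and in the depot comparisons it differed in the direction opposite to Sult1e1, with FIP minus DPP4_pos of -0.90 ± 0.08 in males and -0.85 ± 0.08 in females and APC minus DPP4_neg of -1.0 ± 0.08 in males and -0.83 ± 0.08 in females.

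Across the 24 libraries, on the log2 scale, the 5 genes most like Sult1e1 by Pearson's r were Shisa9 (0.970), the Y-linked Kdm5d (0.964), Tob2 (0.963), Slc25a28 (0.962) and Ppp1r12c (0.958). Those most like Akr1c18 were AI427809 (0.970), Crispld1 (0.969), Adam22 (0.964), Irf4 (0.963) and Hacd4 (0.954). Within the set of 9, Sult1e1 correlated most with Hsd11b1 (0.781) and least with Akr1c14 (-0.921), and Akr1c18 most with Akr1c14 (0.803) and least with Cyp1b1 (-0.910). These coefficients describe libraries that fall into 8 groups, so that they reflect differences between sexes, depots and subpopulations together.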

How the data were processed

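RNA of sorted PDGFRb+ adipose progenitor cells was sequenced in 24 libraries, 3 in each of 8 groups, from 0.5 ug of total RNA each. The submitters' processing notes name featureCounts 1.4.6, HISAT2 2.0.1, DESeq2 1.6.3 and Trim Galore 0.4.1 and the mouse build GRCm38 (mm10), without parameters. Whether counting used strand is not given in the sources used here. What the authors deposited is a normalised signal per gene, whose values behave as read counts divided by 1 factor per library. Each column's values were whole multiples of 1 step, within 0.01 for 100% of values, so that the reads were recovered. Values in the text are the deposited normalised counts unless reads are named. The 958 rows without a symbol held 0.0585% to 0.0765% of reads and entered no test.

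Genes that reached a value of 10 in 3 libraries or more were tested as log2(value + 1) with limma 3.58.1 (trended prior variance, R 4.3.3), on 8 group means over all 24 libraries. P-values were adjusted by Benjamini and Hochberg over the 14517 genes of each comparison, a gene was called at an adjusted p under 0.05, and ± beside a log2 difference is its standard error. Fold changes on this scale understate the change of low genes. The fit was checked on simulated data. Alternatives were a pseudocount of 10, no filter, quantile normalization, a replicate block, a fit on the compared groups alone, edgeR 4.0.16 and DESeq2 1.42.0 on the recovered reads, and leaving out each library. Counting intervals and floors cover counting error only.

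The 9 enzymes and all gene lists were chosen with earlier results of these data known. From each list, at most the 4 called genes with the largest change in a comparison were named, receptors were named whatever they did (1 is not reported here), and for Sult1e1 and Akr1c18 the 5 most similar genes were named, leaving out symbols made of Gm, AC, AL or BC and digits, or ending in Rik. Sequences and gene spans are RefSeq's for GRCm38.p6. Tables were made with Python 3.11.15 and pandas 2.3.3 and plots with matplotlib 3.10.9.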

Additional observations from a re-analysis of the deposited data

Results flagged for a closer look

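Effects that differed between the sexes were called for 18 of the 36 combinations of an enzyme and a comparison, by the interaction term of the limma fit (male minus female of the difference, on the log2 scale). For FIP minus APC these were Hsd11b1 (-0.96) and Cyp1b1 (1.13). For DPP4_pos minus DPP4_neg they were Akr1c18 (3.57), Srd5a1 (1.4), Cyp1b1 (0.99), Hsd17b11 (-0.36) and Cyp7b1 (-1.46). For APC minus DPP4_neg they were Akr1c18 (2.64), Hsd11b1 (2.10), Sult1e1 (0.79), Hsd17b11 (-0.40), Hsd17b12 (-0.64) and Cyp7b1 (-1.52). For FIP minus DPP4_pos they were Hsd11b1 (1.29), Sult1e1 (1.20), Cyp1b1 (0.27), Hsd17b12 (-0.39) and Srd5a1 (-1.15). The Akr1c18 call in APC minus DPP4_neg was lost with edgeR (adjusted p = 0.67) and DESeq2 (adjusted p = 0.107). The Cyp1b1 call in FIP minus DPP4_pos was lost without female DPP4_pos replicate 1, female FIP replicate 1 or 2 or male DPP4_pos replicate 3, with adjusted p up to 0.0986. The Hsd17b12 call in FIP minus DPP4_pos was lost after quantile normalization (-0.21, adjusted p = 0.203).

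Comparisons with DPP4_neg rest on groups that differed in Dpp4, at 243, 235 and 258 normalised counts in male DPP4_neg libraries and 4213, 2124 and 1150 in female ones. The summed interstitial progenitor markers lay at 35154 to 45680 in male DPP4_neg and 213119 to 279451 in female DPP4_neg libraries. The part of these markers in the sex differences was not tested. Without female DPP4_neg replicate 1, the sex difference of Akr1c18 was 2.77 for DPP4_pos minus DPP4_neg and 1.84 for APC minus DPP4_neg. Sex differences in Hsd17b11 of 0.40 or less on the log2 scale concern a gene that varied 1.29-fold between its highest and lowest group mean.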

How the results depend on the processing

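Of 144 results (9 enzymes in 16 comparisons, 108 called), 94 kept direction and call in every alternative and 50 changed in some. A pseudocount of 10 ended 3 calls and added 3, no filter ended 3, quantile normalization ended 9 and added 4, a fit on the compared groups alone ended 9 and added 4, edgeR ended 7 and added 2, and DESeq2 ended 3. With a pseudocount of 10, Akr1c18 gave 3.62 for FIP minus APC in females, 5.86 for DPP4_pos minus DPP4_neg in males, -4.79 for male minus female DPP4_neg, -4.47 for APC minus DPP4_neg in females, and sex differences of 2.68 (DPP4_pos minus DPP4_neg) and 3.61 (APC minus DPP4_neg). For FIP minus APC in males it gave 4.54 with edgeR and 4.67 with DESeq2.

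Signs that turned belonged to uncalled values. Quantile normalization turned Akr1c14 in FIP minus APC of females (-0.042), Srd5a1 (-0.13) and Hsd17b11 (0.077) in APC minus DPP4_neg of males, and Hsd17b11 in FIP minus DPP4_pos of males (0.10). The sex difference of Akr1c18 in FIP minus APC was 0.25 with edgeR and 0.41 with DESeq2. With a pseudocount of 10 that difference was -1.83 and called (limma adjusted p = 0.0252), against -0.31 ± 0.68 (adjusted p = 0.847) on log2(value + 1). Over single libraries left out, ranges that crossed 0 were those of Sult1e1 (DPP4_pos minus DPP4_neg, females -0.14 to 0.18, sex difference -0.31 to 0.0099), Akr1c14 (FIP minus APC, females, -0.11 to 0.19), Akr1c18 (sex difference of FIP minus APC, -0.78 to 0.078), Hsd17b12 (male minus female APC -0.034 to 0.10, FIP minus APC in males -0.054 to 0.011, sex difference of DPP4_pos minus DPP4_neg -0.10 to 0.033), Cyp7b1 (females, APC minus DPP4_neg -0.17 to 0.26 and FIP minus DPP4_pos -0.50 to 0.078) and Srd5a1 (APC minus DPP4_neg, males, -0.083 to 0.20). The cause was not tested.

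In females, 8 enzymes were called in APC minus DPP4_neg, but 4 after quantile normalization, 5 on the groups alone and 5 to 8 with 1 library left out (5 without female APC replicate 1 or DPP4_neg replicate 1). For FIP minus DPP4_pos in females, 7 were called, but 4 after quantile normalization and 5 to 6 with 1 library left out. Quantile normalization moved the median of all genes by 0.13 in APC minus DPP4_neg of females, where 45.4% of called genes were higher, against 56.6% after it. Same-numbered libraries deviated with correlations of -0.173 to 0.201 (median -0.0035), 4 of 84 pairs were over 0.1, and 6 of 24 libraries correlated best with their own number. These pairs include male with female libraries, which cannot share a mouse, so that pairing within a sex was not tested. The replicate block changed 0 of the 144 calls. Akr1c18 in male APC rests on 3 reads, which limits every value that uses that group.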
